A study of Mus musculus with 16 samples.

Results

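The interleukin-1 (IL-1) family genes described here are 10 cytokines, an antagonist and receptors chosen by name: Il33, Il1a, Il1b, Il1rn, Il18, Il1r1, Il1r2, Il1rap, Il1rl1 and Il18r1. All 10 were found by symbol among the 49315 gene identifiers of the count table, and 9 of them passed the filter on low counts with 15993 genes in all. Il1r2 did not pass. The transcripts were measured by RNA sequencing in murine tracheal epithelial cell cultures (MTECs), primary airway epithelium differentiated with its upper surface exposed to air. Cultures came from wild-type (WT) and LMAN1 knockout (KO) littermates of both sexes on a C57BL/6J background, bred from heterozygous parents. LMAN1 is a cargo receptor that carries glycoproteins from the endoplasmic reticulum to the Golgi. Each genotype and sex was either left untreated (naive) or treated overnight with house dust mite (HDM) extract at 20 µg/ml. This gave 8 groups, named here as F (female) or M (male), WT or KO, and naive or HDM, of 2 biological replicates each (16 libraries). The KO is present in every tissue of the mouse, the ages of the donor mice are not given in the labels, and how many animals went into a culture is not stated there. Unless said otherwise, the p-values below rest on the spread between replicate libraries, estimated per gene and shared by all 8 groups. They do not measure the spread of the compared groups alone. By chi-square per degree of freedom over genes, replicates differed least in M KO HDM (4.94) and most in M WT HDM (49.0).

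Cytokines of the IL-1 family are made as precursors that lack a classical secretion signal. Epithelial cells store interleukin-33 (IL-33) and interleukin-1 alpha (IL-1α) and release them on damage as alarm signals, while interleukin-1 beta (IL-1β) and interleukin-18 (IL-18) are cut by inflammasome caspases, chiefly in myeloid cells for IL-1β. IL-1α and IL-1β bind IL1R1, and IL-33 binds the ST2 receptor encoded by Il1rl1. Both receptors signal only with a shared partner chain encoded by Il1rap, through MyD88 and IRAK kinases to NF-κB. In the airway, IL-33 released after allergen contact activates type 2 innate lymphoid cells and mast cells.

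Total counts ranged from 21860698 to 43442188 per library. Lman1 transcript in the libraries labelled KO did not fall to one common level. It lay between 10.6% and 11.8% of the WT mean in 3 of the 4 naive libraries. M KO naive replicate 2 was at 52.6%, and the 4 HDM libraries labelled KO were between 53.9% and 64.8%. Genotype directions under HDM below thus compare WT with libraries that retained more than 50% of this transcript. HDM responses in F KO compare naive libraries at 10.6% with HDM libraries at 55.3% and 64.8%. Treatment and Lman1 level cannot be told apart there. In M KO, naive replicate 1 differed from the HDM libraries in the same way. The KO minus WT differences between HDM responses carry the same limit. F WT HDM stood apart from all other groups in its summed basal and secretory markers, but not in those of ciliated or squamous cells. It was also highest in summed general epithelial and smooth muscle markers and lowest in those of blood cells. Its summed level of 5 basal cell markers was 1969 to 3976 CPM (counts scaled to a common library total), against 6500 to 12760 elsewhere, and that of 5 secretory markers was 10.9 to 11.3 CPM against 86.25 to 1356. Of the basal markers, Krt5, Trp63 and Ngfr were lower in F WT HDM than in every other library. Krt14 was not, at 2017 and 1199 CPM in F WT HDM against 941.1 and 895.8 CPM in M KO HDM. The share of counts from mitochondrial genes was 2.04% and 2.495% in the F WT HDM libraries, the highest of the 16. Scgb1a1, the defining marker of club cells, did not exceed 3.75 CPM in any library, whereas the ciliated marker Foxj1 was at 44.8 to 97.5 CPM. All CPM values are scaled with TMM (trimmed mean of M values) factors. In cultures measured in bulk, fewer cells of a type and less RNA per cell cannot be told apart.

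The members differed widely in abundance. On the scale of CPM per kilobase of exon, the median over the 16 libraries was 17.2 for Il33, 7.75 for Il18r1, 4.56 for Il18 and 2.73 for Il1b. It was 1.93 for Il1r1, 1.57 for Il1rap, 1.05 for Il1a, 0.988 for Il1rn, 0.198 for Il1rl1 and 0.0672 for Il1r2. Il33 was thus the most abundant member per length and the decoy receptor Il1r2 the least.

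**Figure D1:**
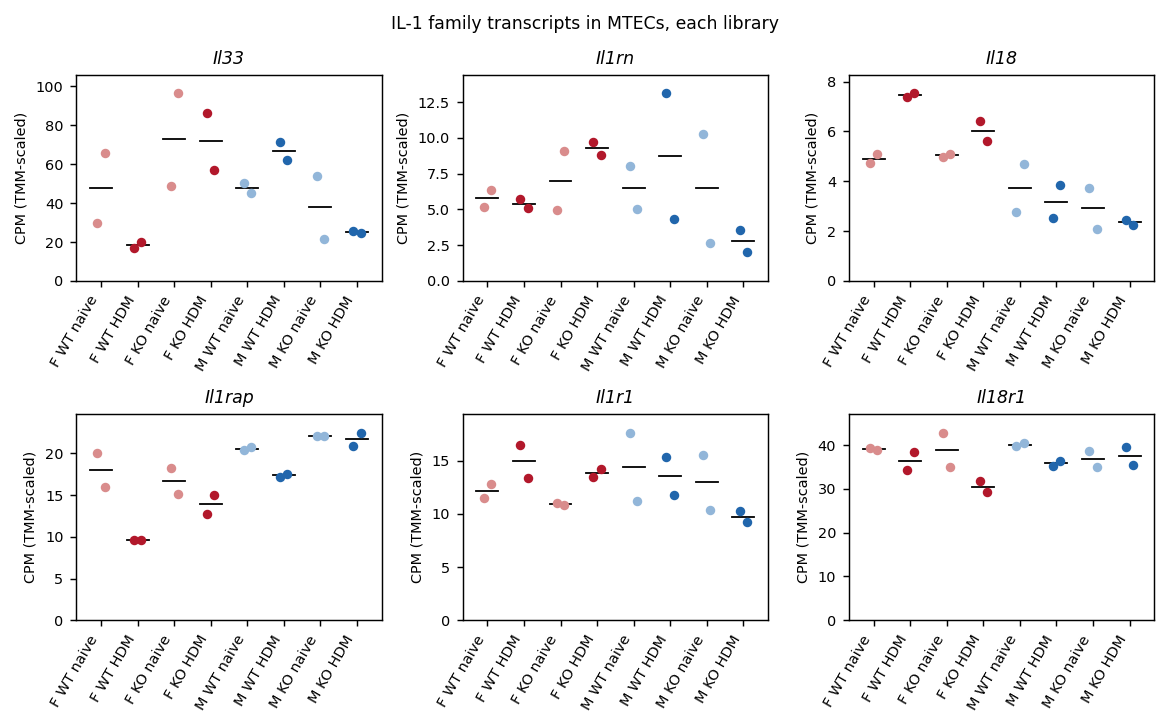
TMM-scaled CPM (linear axes from 0) of 6 IL-1 family members in each of the 16 libraries, with points for libraries, 2 per group, and a black line at the group mean. Il33 and Il1rap are lowest in F WT HDM, and all 8 female libraries are above all 8 male libraries for Il18. How many of all genes divide in these ways was not counted.

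The promoters of Il1a and Il1b are shown because these genes, neighbours on chromosome 2, varied together across libraries. The windows printed are chr2:129309973-129310222 for Il1a and chr2:129371140-129371389 for Il1b. Both sequences are the 250 bases before the RefSeq start in GRCm38.p6, written 5′ to 3′ on the minus strand, the strand of both genes. Capitals mark matches, on either strand, to 3 motifs searched in all 17 upstream windows of the 10 members: TATAAA (the TATA box), the site of AP-1 factors TGANTCA and the NF-κB consensus. The matches do not overlap each other.

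Il1a: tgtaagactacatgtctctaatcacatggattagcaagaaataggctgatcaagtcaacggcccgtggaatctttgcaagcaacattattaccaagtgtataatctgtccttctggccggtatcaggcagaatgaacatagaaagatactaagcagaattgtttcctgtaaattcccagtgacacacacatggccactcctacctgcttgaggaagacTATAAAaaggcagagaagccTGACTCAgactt
Il1b: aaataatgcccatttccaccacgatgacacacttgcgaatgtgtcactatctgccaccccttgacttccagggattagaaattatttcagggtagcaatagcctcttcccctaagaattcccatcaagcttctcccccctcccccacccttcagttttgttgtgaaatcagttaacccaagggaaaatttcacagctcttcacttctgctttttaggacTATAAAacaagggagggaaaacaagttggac

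TATAAA began 32 bases before the start in Il1a and 31 bases before it in Il1b. TGANTCA began 12 bases before the start in Il1a and was not found in the Il1b window. The NF-κB consensus matched neither of these windows and only 1 of the 17, which belonged to Il1r1. Of 32851 windows of the same length, 12.4% held TATAAA, 6.75% TGANTCA and 7.25% the NF-κB consensus. A match is a description of the letters only.

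Il33 (ENSMUSG00000024810) encodes the alarm cytokine IL-33 and spans chromosome 19 from 29925114 to 29960718 of GRCm38 on the plus strand. Its transcript was lower in HDM-treated than in naive F WT MTECs and passed the test of the HDM response in no other group. F WT naive libraries held 29.7 and 65.8 CPM and F WT HDM libraries 16.8 and 20.1 CPM. The F WT HDM values were the lowest of all groups and did not overlap the naive ones, although the naive replicates were far apart. Il33 fell by 1.38 on the log2 scale (standard error 0.46, adjusted p = 0.0299 from the quasi-likelihood model of edgeR, adjusted by Benjamini-Hochberg). This call was lost without F WT naive replicate 2 (log2 fold change -0.69, edgeR adjusted p = 0.297), without F WT HDM replicate 1 (-1.24, 0.13) and without F WT HDM replicate 2 (-1.51, 0.0921). In F KO MTECs Il33 was at 49.0 and 96.5 CPM in naive and 86.4 and 57.1 CPM in HDM libraries, which overlap (log2 fold change -0.02, standard error 0.43, edgeR adjusted p = 0.983).

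In M WT MTECs Il33 was at 50.5 and 45.1 CPM in naive and 71.3 and 62.3 CPM in HDM libraries. The HDM values lay above the naive ones, but the difference did not pass the test (log2 fold change 0.48, standard error 0.44, edgeR adjusted p = 0.936). M KO libraries held 54.0 and 21.6 CPM when naive and 25.8 and 24.8 CPM after HDM. In M KO the low naive library and both HDM libraries were those with the higher Lman1 transcript. F KO did not show this order. Its naive libraries, at 10.6% of the WT mean of Lman1, held 49.0 and 96.5 CPM of Il33. Its HDM libraries, at 55.3% and 64.8%, held 86.4 and 57.1 CPM. The part of Lman1 in the Il33 values was not tested.

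The tests of whether the Il33 response itself differed did not pass, between females and males of WT (female minus male -1.87, standard error 0.63, edgeR adjusted p = 0.0518) or between F KO and F WT (KO minus WT 1.36, standard error 0.63, edgeR adjusted p = 0.181). Under HDM, Il33 had sex differences of opposite sign in the genotypes. It was higher in M WT than in F WT (log2 difference 1.86, standard error 0.46, edgeR adjusted p = 0.00744) and lower in M KO than in F KO (log2 difference -1.50, standard error 0.45, edgeR adjusted p = 0.0307). In naive KO cultures the male minus female difference was already -0.95 and did not pass (edgeR adjusted p = 0.512). The difference between the sex differences under HDM was tested after the values were seen and was -3.36 (standard error 0.65, edgeR adjusted p = 0.00779), with 13.2% of genes called. Its call held in 14 of 14 alternative settings. The call between M KO and F KO was lost without either M KO HDM replicate (edgeR adjusted p = 0.124 and 0.151) and without F KO HDM replicate 1 (0.167).

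By genotype, Il33 was higher in F KO HDM than in F WT HDM (log2 difference 1.96, standard error 0.46, edgeR adjusted p = 0.0094). The F KO HDM libraries held 55.3% and 64.8% of the WT mean of Lman1. This call was lost without F WT HDM replicate 2 (edgeR adjusted p = 0.0589) or F KO HDM replicate 1 (0.0543). In males the KO minus WT difference under HDM was -1.40 (standard error 0.45) and did not pass (edgeR adjusted p = 0.184). Among naive cultures Il33 means were 47.8 CPM in both WT sexes, 37.8 CPM in M KO and 72.8 CPM in F KO, with no call. Group means ran from F KO naive (72.8) down to F WT HDM (18.4). Among neighbours in that order, M WT HDM did not overlap M WT naive, and M KO HDM did not overlap F WT HDM. How often groups of 2 libraries do not overlap, or hold the lowest or highest values, was not counted over all genes. This holds for Il33 and for all genes described below.

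The 3 genes whose log2 CPM followed Il33 most closely over the 16 libraries were Rptn (Pearson r = 0.921), Aldh3a1 (r = 0.915) and B3galt5 (r = 0.906). These libraries share treatment, sex and marker differences, so the correlations describe these samples only, and Rptn and B3galt5 did not exceed 2.87 and 0.525 CPM. A smaller pseudocount and Spearman correlation were each tried for all 9 members tested. Of these settings, 12 changed at least 1 of the 3 closest genes, so the closest genes named here and below depend on the measure. Rptn encodes repetin, a protein of cornified epithelium, and Aldh3a1 an aldehyde dehydrogenase of surface epithelia. Summed markers of squamous cells were 171 to 374 CPM in F WT HDM and 165 to 175 CPM in M KO HDM, the 2 groups lowest in Il33, against 1029 to 1338 CPM in F KO HDM. The 2 measures did not follow each other in every group, since M WT HDM, with a mean of 66.8 CPM of Il33, held 290.2 to 509.2 CPM of squamous markers and M WT naive 208.1 to 495.4 CPM, both overlapping F WT HDM. Summed basal markers were also lowest in F WT HDM but reached 10150 to 12760 CPM in F KO HDM. The part of these cell states in the Il33 values was not tested.

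**Figure D2:**
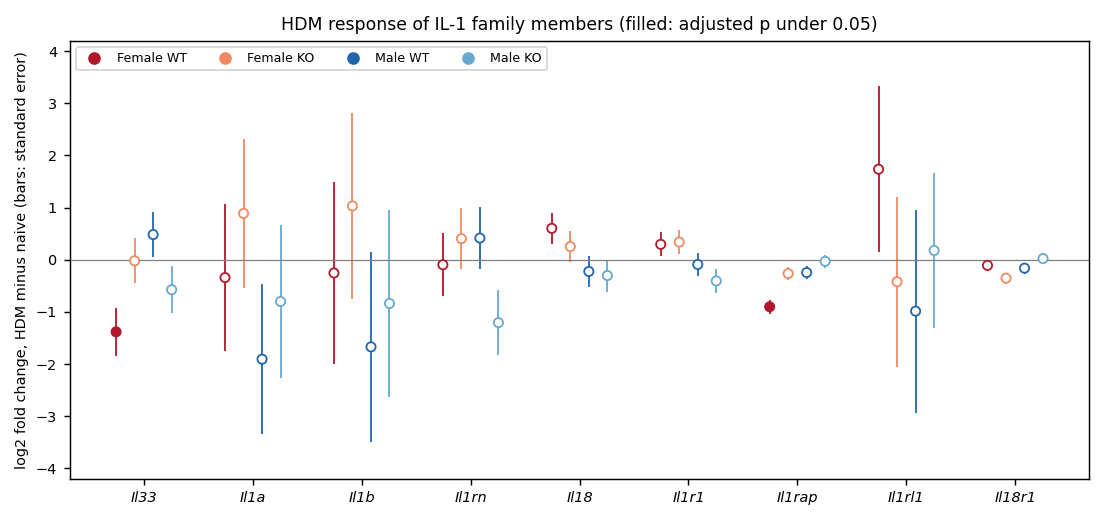
Log2 fold change (HDM minus naive, vertical axis, log2 units) of the 9 members tested, in F WT, F KO, M WT and M KO, with points for fitted values from 2 libraries against 2 and bars for standard errors. Filled points passed the test, which were Il33 and Il1rap in F WT, and Il1a, Il1b and Il1rl1 have standard errors between 1.41 and 1.95.

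Il1b (ENSMUSG00000027398, chromosome 2 from 129364570 to 129371139, minus strand) and Il1a (ENSMUSG00000027399, chromosome 2 from 129299610 to 129309972, minus strand) encode the agonists of IL1R1. Their libraries did not divide by treatment, sex or genotype. Il1b had 0 to 4 reads in 4 libraries and 104 to 422 reads in the other 12. The low libraries were M WT naive replicate 1 with 1 read, M WT HDM replicate 2 with 4, M KO HDM replicate 2 with 0 and F KO naive replicate 1 with 4. Each belonged to a different group, and in each the other replicate of that group had at least 138 reads. M WT naive held both extremes, at 0.0331 and 14.2 CPM.

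Il1a was low in the same 4 libraries, with 3 to 9 reads against 34 to 252 in the other 12. Where both were detected well, the reads of Il1b were 1.68 to 3.06 times those of Il1a. Il1b was also among the 3 genes most like Il1a (r = 0.96), beside the non-classical class I gene H2-M2 (r = 0.959) and the chemokine Ccl22 (r = 0.938). The genes most like Il1b were Marco, a scavenger receptor of macrophages (r = 0.974), Acod1, the itaconate-producing enzyme of activated macrophages (r = 0.969), and the chemokine Ccl3 (r = 0.969).

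Of the 10 IL-1 responsive targets listed, Saa3 and Il6 were lowest in the same 4 libraries. Saa3, an acute phase protein, was at 0.729 to 1.89 CPM there and at 11.8 to 22.3 CPM in the other 12, and Il6 at 0 to 0.0855 against 0.22 to 0.942 CPM. For the neutrophil chemokine Cxcl2, 3 of its 4 lowest libraries were among these. The other 7 targets did not follow Il1b: 1 of the 4 lowest libraries was shared for Cxcl1, Csf2 and Ptgs2, and 0 of 4 for Cxcl5, Ccl20, Csf3 and Lcn2. In M WT naive replicate 1, which had 1 read of Il1b, Ptgs2 was at 134.8 CPM and Ccl20 at 3.91 CPM, both above the other replicate of the group, at 112.9 and 0.707 CPM.

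General markers of blood cells did not divide in that way. Ptprc, which encodes the leukocyte marker CD45, was at 2.29 to 6.41 CPM over all libraries, and 1 of its 4 lowest libraries was among those low in Il1b. For the macrophage gene Csf1r, at 10.5 to 31.4 CPM, it was also 1 of 4, and for Adgre1, at 10.3 to 33.3 CPM, 2 of 4. Cd3e, S100a8, Cpa3 and Mcpt4, which mark T cells, neutrophils and mast cells, never exceeded 3 reads. Whether the presence or activity of macrophages set the Il1b level was not tested.

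**Figure D3:**
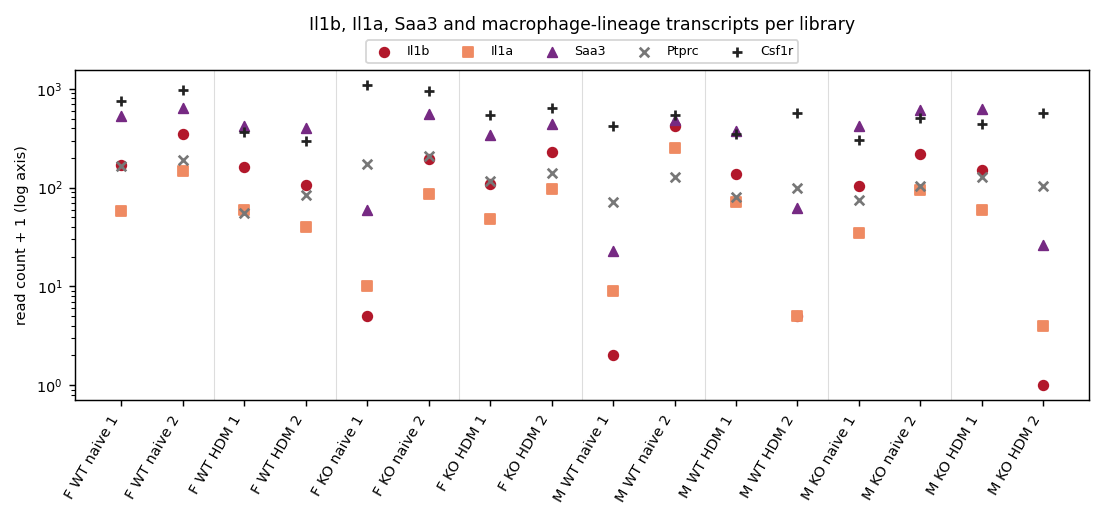
Read count plus 1 (log axis) of Il1b, Il1a, Saa3, Ptprc and Csf1r in each of the 16 libraries, with grey lines between groups. Il1b, Il1a and Saa3 drop together in M WT naive 1, M WT HDM 2, M KO HDM 2 and F KO naive 1, while Ptprc and Csf1r stay between 55 and 1102 reads.

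With such replicates no HDM response of Il1a or Il1b could be resolved. For Il1b the log2 fold changes were -0.25 in F WT, 1.03 in F KO, -1.67 in M WT and -0.84 in M KO, with standard errors of 1.74 to 1.82. In F WT, where all 4 libraries had Il1b reads, the values were 6.07 and 7.80 CPM naive and 6.62 and 5.02 CPM after HDM, which overlap. Il1a ranged from -1.91 in M WT to 0.89 in F KO. Il1b overlaps the antisense gene Il1bos and Il1a overlaps Gm14023 on the opposite strand, and the strand setting of the counting is not given in the sources used here.

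Il18 (ENSMUSG00000039217, chromosome 9 from 50554827 to 50581840, plus strand) encodes IL-18, which promotes interferon production. It was higher in female than in male MTECs after HDM in both genotypes. F WT HDM libraries held 7.37 and 7.53 CPM, F KO HDM 6.42 and 5.62 CPM, M WT HDM 2.52 and 3.83 CPM and M KO HDM 2.46 and 2.24 CPM. Male minus female differences were -1.23 in WT (standard error 0.30, edgeR adjusted p = 0.00644) and -1.36 in KO (standard error 0.30, edgeR adjusted p = 0.00763).

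In naive cultures Il18 was at 4.72 and 5.08 CPM in F WT, 4.99 and 5.11 CPM in F KO, 2.75 and 4.68 CPM in M WT and 3.72 and 2.10 CPM in M KO. The highest male value thus lay just under the lowest female value, and the naive sex differences of -0.40 in WT and -0.80 in KO did not pass (edgeR adjusted p = 0.609 and 0.371). The HDM response did not pass either in F WT (log2 fold change 0.60, standard error 0.29, edgeR adjusted p = 0.116). The sex call in WT under HDM was lost without M WT HDM replicate 1 (edgeR adjusted p = 0.0558) and that in KO without M KO HDM replicate 2 (0.0685). Il18 overlaps Bco2 and Tex12 on the other strand. Its closest genes were Emp3 (r = 0.952), Wnt11 (r = 0.934) and Lxn (r = 0.928).

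Il1rn (ENSMUSG00000026981, chromosome 2 from 24336853 to 24351494, plus strand) encodes the natural antagonist that occupies IL1R1 without signalling. It was at 2.03 to 13.1 CPM and passed in no comparison. M KO HDM was lowest, at 3.53 and 2.03 CPM, and did not overlap F KO HDM at 9.72 and 8.81 CPM (male minus female -1.74, standard error 0.62, edgeR adjusted p = 0.0618). The replicates of M WT HDM, at 13.1 and 4.29 CPM, spanned most of that range. Its closest genes were Elovl1 (r = 0.962), Cdca4 (r = 0.953) and the cell cycle kinase Cdk1 (r = 0.941).

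Il1rap (ENSMUSG00000022514, chromosome 16 from 26581704 to 26730117, plus strand) encodes the partner chain shared by the IL-1 and IL-33 receptors. It fell in F WT MTECs after HDM, from 20.0 and 16.0 CPM to 9.613 and 9.614 CPM. The HDM libraries lay below all other 14. Of all genes, 22.4% were called lower in this response, and how many were lowest in these libraries was not counted. The decrease was -0.90 on the log2 scale (standard error 0.13, edgeR adjusted p = 0.000234) and was called under 10 of 10 alternatives. The lower summed basal and secretory markers and the higher mitochondrial share of F WT HDM moved with it, and their part in it was not tested.

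In the other groups the HDM response of Il1rap was smaller and did not pass. F KO libraries went from 18.3 and 15.2 CPM to 12.7 and 15.1 CPM (log2 fold change -0.26, edgeR adjusted p = 0.217). M WT libraries went from 20.4 and 20.7 CPM to 17.2 and 17.5 CPM (-0.24, 0.936), with no overlap. M KO libraries went from 22.13 and 22.15 CPM to 20.9 and 22.5 CPM (-0.03, 0.97).

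The test of the difference between the female and male WT responses of Il1rap passed (female minus male -0.66, standard error 0.18, edgeR adjusted p = 0.0217, with 24.2% of genes called), and so did that between the F KO and F WT responses (KO minus WT 0.64, standard error 0.18, edgeR adjusted p = 0.0451, with 11.2% of genes called). Both were near the threshold: the former was lost in 6 of 14 alternatives (largest edgeR adjusted p = 0.0945) and the latter in 7 of 14 (largest 0.169), mostly when a single library was left out. Among HDM cultures Il1rap was higher in males, by 0.85 in WT (standard error 0.13, edgeR adjusted p = 0.000362) and 0.64 in KO (standard error 0.13, edgeR adjusted p = 0.00399). It was also higher in F KO than in F WT (0.53, standard error 0.13, edgeR adjusted p = 0.0112), a call lost without F WT HDM replicate 2 (edgeR adjusted p = 0.0781) or F KO HDM replicate 2 (0.105).

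Il1rap overlaps the antisense gene Gm20319. Its closest genes were Clic5 (r = 0.977), Meaf6 (r = 0.975) and Dbt (r = 0.975). Group means of Il1rap ran from 22.1 CPM in M KO naive to 9.61 CPM in F WT HDM.

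Il1r1 (ENSMUSG00000026072, chromosome 1 from 40225080 to 40317257, plus strand), the signalling receptor for IL-1α and IL-1β, was steady, at 9.22 to 17.6 CPM, and passed in no comparison. Its largest HDM response was -0.41 in M KO (standard error 0.23, edgeR adjusted p = 0.781). F WT went from 11.5 and 12.8 CPM to 16.4 and 13.4 CPM and F KO from 11.1 and 10.9 CPM to 13.5 and 14.2 CPM. These female values did not overlap between treatments, but neither difference passed (edgeR adjusted p = 0.323 and 0.391). The gene that followed it most closely was the stress factor Atf3 (r = 0.925), before the laminin chain Lamc1 (r = 0.924) and Etv5 (r = 0.91).

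Il1rl1 (ENSMUSG00000026069, chromosome 1 from 40429570 to 40465415, plus strand), the IL-33 receptor chain ST2, varied widely between replicates, from 0.103 to 13.9 CPM. It was highest in M KO HDM replicate 1 with 13.9 CPM, M KO naive replicate 2 with 11.9 CPM, F WT HDM replicate 2 with 8.76 CPM and F KO naive replicate 1 with 3.62 CPM. In each of these groups the other replicate held at most 1.415 CPM. No comparison passed. The highest and the lowest library were both M KO HDM, with 390 and 3 reads, and no fold is given because the lower count is at the floor.

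Fibroblast markers moved with some of these libraries. Pdgfra, a receptor of mesenchymal cells, was among the 3 genes most like Il1rl1 (r = 0.788), after the potassium channel subunit Kcne4 (r = 0.919) and before Il11 (r = 0.782). Of the 4 libraries highest in Il1rl1, 3 were among the 4 highest for Pdgfra, at 3.77, 3.21 and 11.8 CPM, and likewise 3 for Pdgfrb. For the collagen genes Col1a1, Col1a2 and Col3a1 and for Dcn it was 2 of 4 each, and for Lum 1 of 4. The 7 fibroblast markers summed to 2.46 to 594.8 CPM, and F WT naive replicate 2, second highest in this sum with 538.4 CPM, held 2.16 CPM of Il1rl1. The mast cell genes Cpa3 and Mcpt4 never exceeded 3 reads. The part of fibroblasts in Il1rl1 was not tested.

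**Figure D4:**
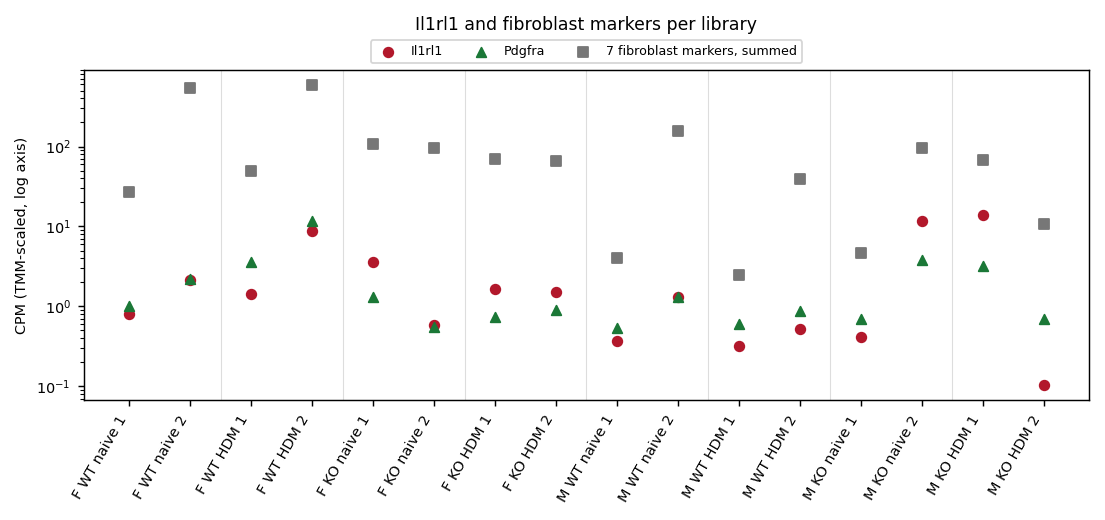
TMM-scaled CPM (log axis) of Il1rl1, Pdgfra and the sum of 7 fibroblast markers in each library, with grey lines between groups. Il1rl1 is above 8 CPM in F WT HDM 2, M KO naive 2 and M KO HDM 1, where Pdgfra is above 3 CPM.

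Il18r1 (ENSMUSG00000026070, chromosome 1 from 40465552 to 40500854, plus strand), the IL-18 receptor chain encoded next to Il1rl1, was the flattest member, at 29.18 to 42.85 CPM (highest over lowest library 1.47). Its closest miss was a lower level in F KO after HDM, from 35.03 and 42.85 CPM to 29.2 and 31.8 CPM (log2 fold change -0.35, standard error 0.10, edgeR adjusted p = 0.0523). DESeq2's Wald test called it (-0.35, adjusted p = 0.0309). In F WT the change was -0.11 (edgeR adjusted p = 0.428). The genes most like it were Ensa (r = 0.888), Erlec1 (r = 0.867) and Mettl21a (r = 0.847), all of which also varied little.

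Il1r2 (ENSMUSG00000026073, chromosome 1 from 40074079 to 40125231, plus strand), the decoy receptor that binds IL-1 without signalling, had 0 to 7 reads per library, and 5 libraries were at or below the floor of 3 reads. No fold is given, since both sides of most comparisons lie near that floor. Il1r2 overlaps the antisense gene Gm16894.

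The counts of members called stand here beside the share of all genes called. In F WT, 2 of 9 fell and 0 rose after HDM, where 43.1% of all genes were called, 22.4% as lower and 20.6% as higher (median log2 fold change of the members -0.11 and of all genes -0.02). In F KO 0 of 9 were called by edgeR, with 10.4% of genes called, 1 member at an unadjusted p under 0.05 and 1 called by DESeq2. In M WT, in M KO and over males of both genotypes, 0 of 9 were called by edgeR or by DESeq2. In edgeR 0 of them had an unadjusted p under 0.05. Of all genes, edgeR called 0% in these comparisons and DESeq2 called 2, 1 and 16 genes.

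Between the sexes, 3 of 9 were called in WT HDM, with 41.6% of genes called, and 3 of 9 in KO HDM, with 25.3% of genes called. Members at an unadjusted p under 0.05 were 3 in WT HDM and 6 in KO HDM. In naive cultures 0 were called by edgeR or DESeq2 in WT or KO. At an unadjusted p under 0.05 were 0 members in WT and 2 in KO, Il18 and Il1rap. Of all genes, edgeR called 0.1% in WT and 0.188% in KO, and DESeq2 called 204 and 216 genes. Between genotypes, 2 of 9 were called in F HDM, with 29.2% of genes called. In M HDM 0 of 9 were called by edgeR or DESeq2, with 4 members at an unadjusted p under 0.05. Of all genes, edgeR called 0% there, whereas DESeq2 called 562 genes. Between genotypes in naive cultures of either sex, 0 members were called by either tool and 0 had an unadjusted p under 0.05. There edgeR called 0% of all genes and DESeq2 1 gene in each sex. The female and male responses differed for 0 members in KO by either tool, with 2 at an unadjusted p under 0.05. Of all genes, edgeR called 3.56% there and DESeq2 1192 genes. The M KO and M WT responses differed for 0 members (0% of genes called by edgeR, 0 genes by DESeq2, 0 members at an unadjusted p under 0.05). The HDM and naive comparisons of a sex share libraries and are not independent.

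Other genes of the pathway were taken from 6 lists of 56 genes, of which 47 were tested. In F WT after HDM 9 rose and 16 fell, where 20.6% of all genes were called higher and 22.4% lower. In F KO 2 rose and 9 fell, where 10.4% of all genes were called in either direction. That share was not split by direction, so the 9 that fell have no like share beside them. In males edgeR called 0 of the 47 and 0% of all genes. DESeq2 also called 0 of the 47 in males, and 9 in M WT and 5 in M KO had an unadjusted edgeR p under 0.05. The F KO count of 11 fell when any of its 4 libraries was left out, and so did the number of all genes called. In F WT, of the processing and release genes 4 of 7 fell, of the adaptors and kinases 8 of 15 fell and 1 rose, and of the NF-κB and feedback genes 5 of 10 rose and 1 fell. Of the IL-1 responsive targets 2 of 10 rose and 1 fell. The median log2 fold changes of these lists were -0.92, -0.21, 0.50 and 0.34, against -0.02 over all genes.

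The 4 pathway genes with the smallest p in F WT were Nek7, Pycard, Tirap and Casp4. Pycard, the inflammasome adaptor ASC, was at 10.4 and 10.3 CPM in naive and 2.79 and 1.37 CPM in HDM libraries of F WT (log2 fold change -2.30, standard error 0.24, edgeR adjusted p = 2.26e-05). In F KO it fell from 11.6 and 11.9 CPM to 7.50 and 5.55 CPM (-0.85, edgeR adjusted p = 0.0277), and in males it was between 11.7 and 13.5 CPM. Nek7, which licenses the NLRP3 inflammasome, fell by 0.87 in F WT and 0.50 in F KO on the log2 scale (edgeR adjusted p = 1.88e-05 and 0.00475). Casp4, the mouse caspase-11 gene, fell by 0.92 and 0.53 (5.02e-05 and 0.00953), and Tirap, an adaptor of Toll-like receptors, by 0.64 in F WT (3.64e-05). In F KO the smallest p belonged to the neutrophil chemokine Cxcl5, which fell by 1.65 on the log2 scale (edgeR adjusted p = 0.00206), and Tab1, a subunit of the TAK1 kinase complex, fell by 0.41 (0.00594).

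In males the smallest p in WT were those of Relb, Nfkbia, Nfkb2 and Chuk, which encode NF-κB subunits, an inhibitor and an activating kinase. The log2 fold changes of the first 3 were 0.50, 0.57 and 0.39 in M WT and 0.38, 0.36 and 0.29 in M KO, and none passed (edgeR adjusted p = 0.936 in M WT and 0.781 in M KO). Chuk was at -0.28 in M WT. Casp4 had the smallest p in M KO, where it was at 0.42.

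The genes of the next sentences were chosen after their values were seen. Il1rl2, the receptor for IL-36, fell in F WT from 19.5 and 21.5 CPM to 3.66 and 2.84 CPM (log2 fold change -2.65, standard error 0.40, edgeR adjusted p = 0.000298), below all 14 other libraries. Sigirr, an inhibitory receptor of the family, fell in both female genotypes, by 0.66 in WT and 0.41 in KO (edgeR adjusted p = 0.000396 and 0.0274). Il18bp, the secreted binding protein that neutralizes IL-18, rose in F WT from 1.85 and 1.78 CPM to 4.12 and 3.17 CPM (1.01, standard error 0.25, edgeR adjusted p = 0.00672), above all 14 other libraries. In F WT 20.6% of all genes were called higher and 22.4% lower. How many of all genes were highest or lowest in the F WT HDM libraries was not counted. The ubiquitin-editing NF-κB inhibitor Tnfaip3 rose in F WT from 20.9 and 25.8 CPM to 142 and 176 CPM (2.77, standard error 0.37, edgeR adjusted p = 0.000143), and the neutrophil chemokine Cxcl1 from 1.63 and 3.30 CPM to 15.0 and 18.3 CPM (2.73, standard error 0.60, edgeR adjusted p = 0.00343). In F KO Tnfaip3 was at 24.9 and 30.8 CPM in naive and 59.3 and 66.1 CPM in HDM libraries, which do not overlap but did not pass (1.17, edgeR adjusted p = 0.0603). Of the other ligands, transcripts of the IL-36 agonists Il36a and Il36b were at or near 0 in every library.

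**Figure D5:**
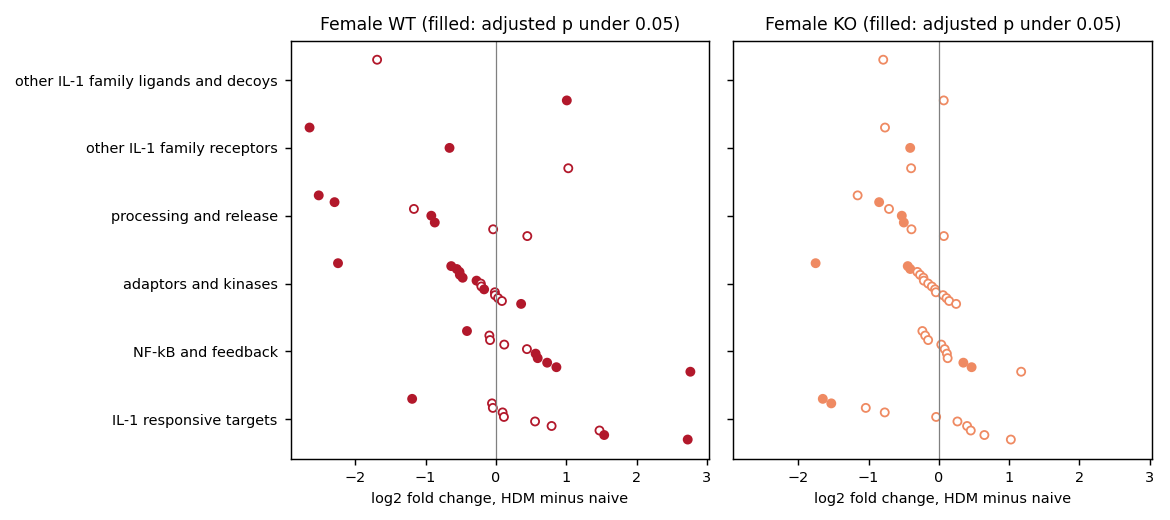
Log2 fold change (HDM minus naive, horizontal axis) of the 47 tested pathway genes in F WT and F KO, by list. Each point is a gene and filled points passed the test: 25 genes in F WT and 11 in F KO.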

How the data were processed

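RNA was sequenced from 16 MTEC cultures, and the authors deposited raw read counts per gene, which per the submitters' processing notes came from reads trimmed with Trimmomatic 0.36, aligned to GRCm38 with STAR 2.5.2b and counted with featureCounts of Subread 1.5.2. The annotation release and strand setting are not given in the sources used here. Identifiers were named from GENCODE M21, which matched 49056 of 49315 (the other 259 held 0.0106% of counts). From the counts, edgeR 4.0.16 in R 4.3.3 was fitted with filterByExpr, TMM factors and 1 mean per group over all 16 libraries. Contrasts were tested by its quasi-likelihood test with Benjamini-Hochberg adjustment over 15993 genes and called under 0.05. Alternatives were DESeq2 1.42.0, other scalings, no filter, the compared libraries only, a replicate block and leaving out each library. The members and lists were chosen with earlier results of these data known. All 10 members are described, with up to 4 pathway genes of smallest p per HDM response and the 3 genes of highest Pearson correlation per member (log2 CPM, pseudocount 1). A count at or under 3 was taken as the floor. Reads carry no known molecular identifiers, so this covers counting error only. Promoters are from RefSeq, in which all 10 members matched. The script was tested on simulated data for the F WT HDM response over 15993 genes, where it called 39 of 68 genes changed 1 log2 unit, 55 of 66 changed 2 units, 58 of 66 changed 3 units and 6 of 15793 unchanged genes.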

Additional observations from a re-analysis of the deposited data

Results flagged for a closer look

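A test of the difference between groups singled out 3 values. The Il1rap response to HDM differed between F WT and M WT by -0.66 on the log2 scale and between F KO and F WT by 0.64. The male minus female difference of Il33 under HDM differed between KO and WT by -3.36, a comparison added after the values were seen. With 2 libraries a group, no sample was tested for standing apart from its group.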

How the results depend on the processing

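Counts of members called, and of pathway genes called in the HDM responses, stayed within 1.5 times the reported count in 211 settings. They moved beyond it in 51. A count that was 0 in both was taken as unchanged, which is no sign of stability. Without the filter on low counts Il1r2 was also counted, so members called are out of 10. The number of all genes called stands in brackets. For the HDM response members called were 2 in F KO (2717), 3 in M WT (149) and 3 in M KO (705). Averaged males had 2 (263). For sex they were 2 in naive KO (859), 7 in WT HDM (6753) and 8 in KO HDM (4536). For genotype they were 2 in F naive (135), 2 in M naive (98), 4 in F HDM (5149) and 3 in M HDM (1896). They were 5 and 5 for the female minus male responses of WT and KO (4454 and 1977). For the KO minus WT responses of females and males they were 4 and 2 (3029 and 668). The genotype difference of the sex difference had 2 in naive and 3 in HDM cultures (70 and 3428). Pathway genes called were then 18 in F KO (2717), 8 in M WT (149) and 5 in M KO (705). The cause was not tested. DESeq2 called 1 member in the F KO response (2106) and 2 in the female minus male WT response (4064). It called 2 in the genotype difference of the sex difference under HDM (2747). Scaling by library size alone gave 2 for the female minus male WT response (3862). With the compared libraries only, sex in KO HDM had 6 (5787) and the KO minus WT female response 0 (1865).

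With the replicate number as a block, called members were 1 in the F KO response, where 1399 of all genes were called. They were 2 in the female minus male WT response (4694) and 0 in the KO minus WT female response (1358). Il33 in F KO became 0.0284 and Il1rl1 in M KO -0.20, neither of which had passed. The labels do not say what the numbers mark, and each comparison has only 2 pairs. The correlation of the replicate differences ran from -0.29 to 0.61 and was over 0.1 in 6 of 12 comparisons, so whether the numbers pair the cultures was not settled. For the 3 comparisons under -0.1 a crossed pairing, added after the values were seen, moved no count of members.

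Leaving out 1 library leaves a group with 1 culture that is assumed to vary like the others. Members called then ranged from 1 to 2 in the F WT response and 0 to 1 in F KO, 2 to 3 for sex in WT HDM and 1 to 3 in KO HDM, 0 to 2 for genotype in F HDM, 0 to 1 for both differing responses and 1 to 2 for the genotype difference of the sex difference under HDM, and were 0 to 0 in the others. Pathway genes called were fewer in F WT and F KO and stayed at 0 in males. The number of all genes called also fell in every such fit of F WT and F KO, and of sex and female genotype under HDM. Values that had not passed changed sign. Il33 ranged from -0.43 to 0.55 in F KO and -1.09 to 0.24 in M KO. Il1a ranged from -0.63 to 0.0436 in F WT, -5.10 to 2.11 in M WT and -4.14 to 0.13 in M KO, and Il1b from -5.80 to 5.91 in M WT and -10.19 to 0.17 in M KO. Il1rl1 ranged from -0.0892 to 2.66 in F WT, -1.20 to 1.42 in F KO, -1.63 to 0.20 in M WT and -5.85 to 4.07 in M KO. Il1rn ranged from -0.23 to 0.0582 in F WT, -0.60 to 1.01 in M WT and -1.88 to 0.0659 in M KO, and Il18 from -0.56 to 0.21 in M WT and -0.66 to 0.17 in M KO. Il1r1 ranged from -0.38 to 0.27 in M WT, Il1rap from -0.0858 to 0.0233 and Il18r1 from -0.0584 to 0.11 in M KO.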
